A study of Homo sapiens with 18 samples.

Results

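RNA levels of the estrogen receptor gene ESR1 and of 7 genes for its coregulators were followed in PEO1 cells. PEO1 was derived from a high-grade serous carcinoma of the human ovary and carries mutant p53. The 7 coregulators were the coactivators NCOA1, NCOA2 and NCOA3, the acetyltransferase EP300, the Mediator subunit MED1, and the corepressors NCOR1 and NRIP1. The members were found by name, as the rows of the deposited table whose transcripts belong to those 8 symbols. Each symbol had 1 row, so the 8 members were 8 of 57736 rows, and all 8 passed the filter on low counts that left 15318 rows for testing.

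Estrogen receptor alpha, the protein of ESR1, is a transcription factor that is held by chaperones until estradiol binds it. It then binds DNA at estrogen response elements and gathers coactivators, which acetylate histones and connect it to RNA polymerase through the Mediator complex. Corepressors compete with coactivators for the receptor or bring histone deacetylases to the genes it binds. In ovarian carcinoma the receptor is a target of endocrine therapy.

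The libraries fell into 6 groups of 3, 18 libraries in all. In the sip53 arm the cells had received an siRNA against p53, and in the siControl arm a control siRNA. In each arm the cells were collected after 0, 2 or 8 h of 10 nM estradiol (E2), and all had spent 48 h beforehand in phenol red-free medium with charcoal-stripped serum, which removes most steroid hormone. No library without E2 was collected at 2 h or 8 h. Changes from 0 h, called E2 changes below, therefore cannot be told apart from changes with time or handling. The question the design addresses is how mutant p53 bears on estrogen receptor activity. PEO1 is 1 cell line, and the labels give neither the siRNA sequences nor whether samples of the same group were grown separately, so p-values speak of the spread among the libraries at hand, part of which may be technical.

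RNA was read from transcript 3′ ends (QuantSeq FWD), and levels are given as CPM, read counts scaled to a common library size with TMM scaling, as mean ± SD. Total counts per library were 9225939 to 11307199 in sip53 and 7542457 to 10132570 in siControl. The libraries numbered 10 to 18 were all sip53 and those numbered 1 to 9 all siControl, so library order and arm cannot be told apart. On the first principal component, which held 24.1% of the variance, sip53 0 h replicate 1 lay at -3.1 while the other sip53 libraries lay at 18.8 to 44, and siControl 0 h replicate 2, the library with the fewest counts, was the lowest at -49.9. Of 13 epithelial and serous carcinoma markers 12 passed the filter and SOX17 had 0 counts; their summed level was 7150 to 8500 CPM in sip53 libraries and 5810 to 6480 CPM in siControl libraries. KRT7, KRT8, KRT18 and KRT19 made up most of it, with 5250 to 6650 CPM in sip53 and 4150 to 4640 CPM in siControl, while the other 9 summed to 1760 to 2060 CPM in sip53 and 1660 to 1930 CPM in siControl. PAX8 (114 CPM in sip53 and 122 CPM in siControl), MUC16 (34.2 CPM in sip53 and 40.2 CPM in siControl) and CLDN3 (33.5 CPM in sip53 and 38.5 CPM in siControl) had lower means in sip53. Of the markers of other cell types, 3 of 9 for fibroblasts, 2 of 7 for leukocytes and 0 of 6 for endothelium passed it. The fibroblast marker THY1 stood at 110 CPM in sip53 and 111 CPM in siControl. FAP stood at 9.74 CPM in sip53 and 13.6 CPM in siControl, and COL1A1 at 9.4 CPM in sip53 and 7.01 CPM in siControl. The leukocyte markers CD68 and CD14 stood at 8.95 and 6.64 CPM in sip53 and at 8.77 and 5.54 CPM in siControl. COL1A2, COL3A1, DCN, LUM, PTPRC and CD3E were at 0 counts. The part of the marker level in the results was not tested.

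The promoters of the members are shown where they hold the letters that the receptor is known to read. An estrogen response element is a pair of half-sites, GGTCA and TGACC, facing each other across 3 bases. RefSeq promoter windows (GRCh38.p14, 250 bases before to 50 after a transcription start) were taken for 7 members, 17 windows in all. A half-site, as GGTCA on either strand and thus GGTCA or TGACC in the printed strand, was present in 3 of the 17 windows and in 37.4% of the 35116 windows of all genes. The pair of half-sites was in 0 of the 17 windows and in 0.057% of all windows. The 3 windows with a half-site belong to ESR1, NRIP1 and MED1, and the half-site is in capitals. The window of ESR1 lies at chr6:151690277-151690576 on the plus strand and is 1 of 6 windows of that gene, that of NRIP1 at chr21:15064951-15065250 on the minus strand and is 1 of 3, and that of MED1 at chr17:39451214-39451513 on the minus strand.
ESR1: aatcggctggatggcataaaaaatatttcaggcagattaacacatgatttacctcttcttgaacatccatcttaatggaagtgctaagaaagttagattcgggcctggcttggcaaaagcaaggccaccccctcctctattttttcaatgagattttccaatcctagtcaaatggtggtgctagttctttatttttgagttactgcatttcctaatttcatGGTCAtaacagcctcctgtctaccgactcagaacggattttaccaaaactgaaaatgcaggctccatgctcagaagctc
NRIP1: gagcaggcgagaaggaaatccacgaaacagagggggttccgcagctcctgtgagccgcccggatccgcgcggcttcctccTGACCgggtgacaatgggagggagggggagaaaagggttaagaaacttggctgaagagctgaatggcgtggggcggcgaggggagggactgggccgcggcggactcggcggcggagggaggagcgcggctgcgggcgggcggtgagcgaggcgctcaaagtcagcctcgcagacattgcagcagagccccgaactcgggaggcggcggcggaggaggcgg
MED1: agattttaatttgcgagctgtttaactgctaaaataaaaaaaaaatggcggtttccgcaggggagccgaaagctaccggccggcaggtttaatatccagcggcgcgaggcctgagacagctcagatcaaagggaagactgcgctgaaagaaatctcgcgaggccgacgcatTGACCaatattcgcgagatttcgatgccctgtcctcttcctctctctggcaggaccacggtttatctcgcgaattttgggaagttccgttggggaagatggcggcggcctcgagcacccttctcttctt

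ESR1 RNA was higher after p53 knockdown at each of the 3 times. At 0 h the sip53 libraries held 97.5, 92.7 and 96.1 CPM of ESR1, against 57.2, 78.1 and 66.3 CPM in siControl. At 2 h the sip53 libraries held 86.5, 87.6 and 93.7 CPM, against 62.0, 61.8 and 82.9 CPM in siControl. At 8 h they were 86.7, 87.3 and 78.9 CPM in sip53 and 62.7, 59.6 and 64.4 CPM in siControl. The groups did not overlap at any of the 3 times, and over all times 8 of 9 sip53 libraries lay above every siControl library. The exception was sip53 8 h replicate 3 at 78.9 CPM, which lay below siControl 2 h replicate 3 at 82.9 CPM.

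Averaged over the times, ESR1 stood at 89.7 ± 5.83 CPM in sip53 and 66.1 ± 8.65 CPM in siControl (SD, n = 9 each). Its log2 fold change was 0.44 ± 0.07 (SE), a fold of 1.36 with a 95% interval of 1.23 to 1.5, and the adjusted p was 3.68e-05 in edgeR's quasi-likelihood test with Benjamini-Hochberg adjustment over all rows tested. At single times the same edgeR fit gave log2 values of 0.51 ± 0.12, 0.37 ± 0.12 and 0.44 ± 0.12 for 0, 2 and 8 h, with adjusted p of 0.0114, 0.0401 and 0.0237. The averaged call held in all 18 fits that left out 1 library and in all 6 other settings tried, with log2 fold changes of 0.40 to 0.50.

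The calls at single times depended more on single libraries. The 0 h call did not survive the removal of sip53 0 h replicate 3 (adjusted p = 0.0589 in edgeR) or a fit restricted to the 2 groups compared (adjusted p = 0.0754). The 8 h call was lost on leaving out sip53 8 h replicate 1 or 2 or siControl 8 h replicate 1 or 2, with adjusted p of 0.0583 to 0.0922. At 2 h it was lost in 11 of the 18 such fits, with adjusted p of 0.0523 to 0.181; these left out any sip53 2 h library, sip53 0 h replicate 2 or 3, sip53 8 h replicate 1 or 2, siControl 2 h replicate 1 or 2, or siControl 8 h replicate 1 or 2. Where the library left out was of 0 h or 8 h, outside the 2 h comparison, the 2 h log2 value stayed at 0.37. The adjusted p in those fits was 0.0523 to 0.0594 in edgeR. Without sip53 0 h replicate 1, the library near the siControl arm, the averaged log2 fold change of ESR1 was 0.44, and without siControl 0 h replicate 2 it was 0.48.

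**Figure D1:**
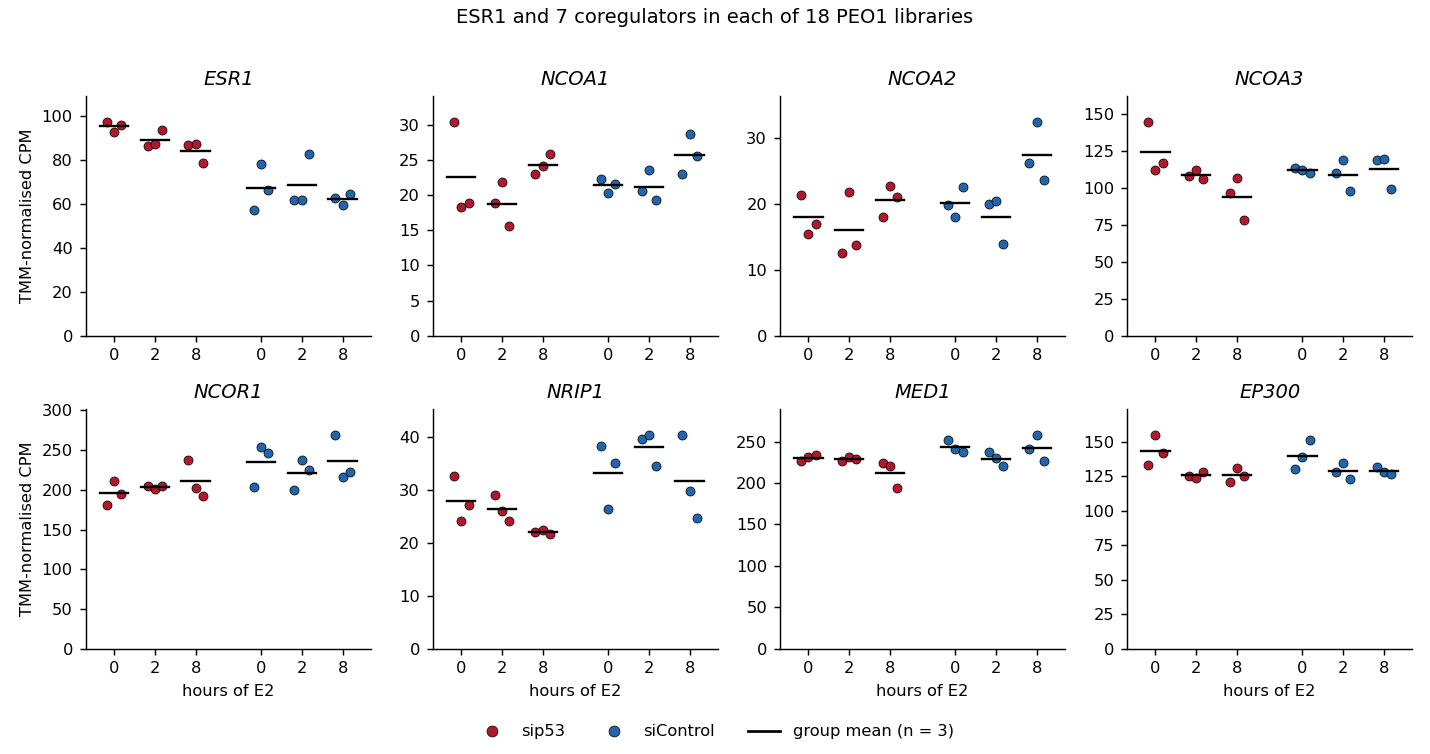
TMM-normalised CPM (y axis, from 0) of the 8 members in each of the 18 libraries, by hours of E2 (x axis), with sip53 in red on the left and siControl in blue on the right; points are libraries and black bars are group means (n = 3). ESR1 is at 78.9 to 97.5 CPM in sip53 and at 57.2 to 82.9 CPM in siControl, while NRIP1 is at 21.6 to 32.7 CPM in sip53 and at 24.8 to 40.4 CPM in siControl.

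The ESR1 gene is on chromosome 6 (GRCh38, 151656691 to 152129619, plus strand) and overlaps SYNE1, a gene for a nuclear envelope protein, on the other strand. The labels do not say whether strand was used in counting, and without it reads of such a pair cannot be told apart. SYNE1 stood at 6.03 ± 2.08 CPM in sip53 and 10.7 ± 2.03 CPM in siControl (SD, n = 9 each). Its log2 fold change was -0.85 ± 0.15 (adjusted p = 0.000101 in edgeR). The part of such shared reads in the level of either gene was not tested.

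NRIP1, a corepressor that binds the estradiol-bound receptor and is itself known as an estrogen-induced gene in breast cancer cells, was lower after p53 knockdown. At 0 h the sip53 libraries held 32.7, 24.2 and 27.1 CPM of NRIP1, against 38.3, 26.4 and 35.1 CPM in siControl. At 2 h the sip53 libraries held 29, 26 and 24.1 CPM, against 39.7, 40.4 and 34.5 CPM in siControl. At 8 h they were 22.0, 22.4 and 21.6 CPM in sip53 and 40.4, 29.9 and 24.8 CPM in siControl. The groups overlapped at 0 h and did not at 2 h and 8 h. The 3 sip53 libraries at 8 h were the closest together of any group (22.0 ± 0.43 CPM), while the siControl libraries at 8 h spread widely (31.7 ± 7.94 CPM).

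Averaged over the times, NRIP1 stood at 25.4 ± 3.68 CPM in sip53 and 34.4 ± 6.05 CPM in siControl (SD, n = 9 each). Its log2 fold change was -0.44 ± 0.10, a fold of 0.739 with a 95% interval of 0.644 to 0.847 (adjusted p = 0.00109 in edgeR), and the call held in all 18 fits without 1 library and all 6 other settings. For 0, 2 and 8 h the same edgeR fit gave -0.25 ± 0.17, -0.53 ± 0.16 and -0.52 ± 0.17, with adjusted p of 0.358, 0.0348 and 0.0503. The call at 2 h was lost without sip53 2 h replicate 2 or 3 or siControl 2 h replicate 1 or 2 (adjusted p of 0.0718 to 0.144). At 8 h NRIP1 passed the threshold without sip53 0 h replicate 1, siControl 0 h replicate 1 or 2, or siControl 8 h replicate 3 (adjusted p of 0.0181 to 0.0398), and with DESeq2 (0.0294), without the filter on low counts (0.0233) and with RLE scaling (0.0478). Without siControl 8 h replicate 1, the highest library of its group, the 8 h value was -0.31 (adjusted p = 0.323 in edgeR), and in the remaining fits without 1 library it was not called.

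The ratio of ESR1 counts to NRIP1 counts within a library does not depend on how libraries are scaled. This ratio was looked at after the values were seen, so it is a description with no test, and its absolute size reflects how each 3′ end is captured. It was lowest at 2.98, at the median 3.66 and highest at 3.95 in the 9 sip53 libraries, against 1.49, 1.89 and 2.96 in the 9 siControl libraries. All sip53 libraries thus lay above all siControl libraries, by a narrow margin at the edge: sip53 0 h replicate 1 and sip53 2 h replicate 1 both had 2.98 and siControl 0 h replicate 2 had 2.96. The medians differed by 1.94 times. The other 2 ratios computed overlapped: ESR1 over NCOR1 ran from 0.364 to 0.539 in sip53 and from 0.233 to 0.369 in siControl, and NRIP1 over NCOA3 from 0.210 to 0.275 in sip53 and from 0.235 to 0.362 in siControl.

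**Figure D2:**
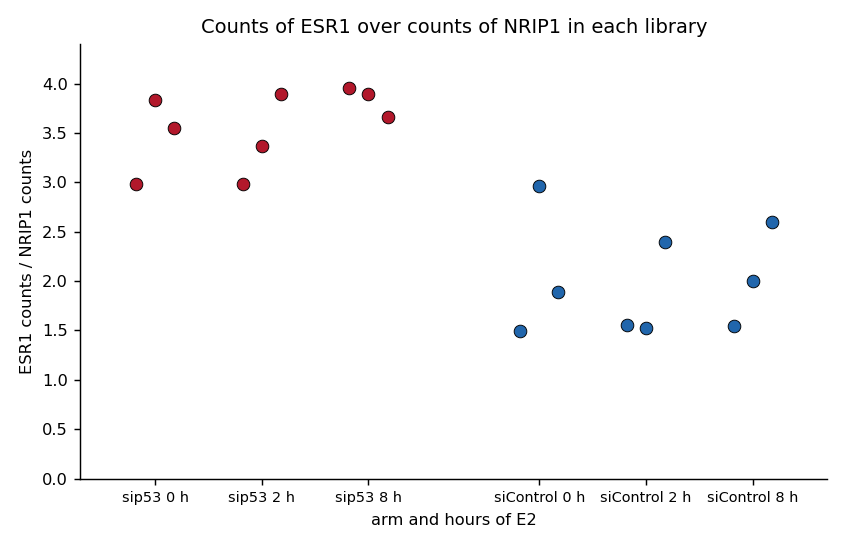
Counts of ESR1 divided by counts of NRIP1 (y axis, from 0, no unit) in each library, by arm and hours of E2 (x axis), with sip53 in red on the left and siControl in blue on the right. The sip53 points run from 2.98 to 3.95 and the siControl points from 1.49 to 2.96, with siControl 0 h replicate 2 highest of its arm.

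NCOR1, the corepressor that docks on unliganded and antagonist-bound receptors and brings the deacetylase HDAC3, was slightly lower after p53 knockdown. It ran from 181 to 238 CPM with a median of 202 in the 9 sip53 libraries, and from 200 to 269 CPM with a median of 225 in the 9 siControl libraries. The arms overlapped at each time. NCOR1 averaged 203 ± 15.8 CPM in sip53 and 230 ± 23.2 CPM in siControl (SD, n = 9 each), with a log2 fold change of -0.18 ± 0.06 and an adjusted p of 0.0329 in edgeR. The call rested on many libraries: it was lost in 12 of the 18 fits without 1 library (adjusted p of 0.0546 to 0.101), and the 6 that kept it left out sip53 0 h replicate 2, sip53 8 h replicate 1, siControl 0 h replicate 1, siControl 2 h replicate 1, or siControl 8 h replicate 2 or 3. It was also lost with upper-quartile scaling (adjusted p = 0.0645). At no single time was NCOR1 called, with log2 values of -0.26 ± 0.11, -0.11 ± 0.11 and -0.16 ± 0.11 at 0, 2 and 8 h (adjusted p of 0.138, 0.558 and 0.393 in edgeR), although it was called at 0 h without siControl 0 h replicate 1 (adjusted p = 0.0489). On the other strand NCOR1 overlaps TTC19 (84.0 ± 6.07 CPM in sip53 and 84.7 ± 6.05 CPM in siControl; log2 -0.01 ± 0.06) and PIGL (12.4 ± 2.09 CPM in sip53 and 9.40 ± 1.75 CPM in siControl; log2 0.40 ± 0.12).

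The 3 steroid receptor coactivators, whose proteins bind the liganded receptor and bring acetyltransferases to it, were not called after p53 knockdown. NCOA2 had the largest difference of the 3, at 18.2 ± 3.72 CPM in sip53 and 21.9 ± 5.32 CPM in siControl (log2 -0.25 ± 0.11, 95% interval -0.49 to -0.01, adjusted p = 0.0938 in edgeR). It passed the threshold without sip53 2 h replicate 2 (adjusted p = 0.0163) or siControl 2 h replicate 3 (adjusted p = 0.0462). NCOA1 stood at 21.9 ± 4.54 CPM in sip53 and 22.7 ± 2.90 CPM in siControl, with a 95% interval of -0.26 to 0.15 on the log2 scale. NCOA3, which is often amplified in breast cancer, stood at 109 ± 17.6 CPM in sip53 and 111 ± 8.09 CPM in siControl, with an interval of -0.18 to 0.10.

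EP300, a histone acetyltransferase that works with these coactivators, had the same rounded mean in both arms, 132 ± 10.8 CPM in sip53 and 132 ± 8.22 CPM in siControl, and an interval of -0.12 to 0.09 on the log2 scale. MED1, the Mediator subunit that contacts nuclear receptors, stood at 224 ± 12 CPM in sip53 and 238 ± 11.8 CPM in siControl, with a log2 fold change of -0.09 ± 0.05 and an interval of -0.19 to 0.01 (adjusted p = 0.155 in edgeR). At 0 h and at 8 h the 3 sip53 libraries of MED1 lay below the 3 siControl libraries. These intervals bound the average change of NCOA1, NCOA3, EP300 and MED1 below the estimates for ESR1 (0.44) and NRIP1 (-0.44). The interval of NCOA1 overlaps that of NRIP1, -0.63 to -0.24. None of them shows that the arms are alike.

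Over the averaged times, 1 of the 8 members was called higher (ESR1), against 16.1% of all rows tested, and 2 were called lower (NRIP1 and NCOR1), against 18.5% of all rows. The share of members called was therefore near that of all rows, and the median log2 fold change was -0.07 over the members and 0.01 over all rows. At 0 h 1 member was higher (ESR1), with 3.98% of rows higher, and 0 were lower, with 5.14% of rows lower. At 2 h 1 member was higher (ESR1), with 4.42% of rows, and 1 was lower (NRIP1), with 7.79%. At 8 h 1 was higher (ESR1), with 2.81%, and 0 were lower, with 6.14%. Of all rows, 431 were higher and 941 lower at 8 h, and with upper-quartile scaling 617 were higher and 838 lower. At an unadjusted p under 0.05, 2, 2 and 5 members passed at 0, 2 and 8 h, with 25.4%, 26.8% and 24.5% of all rows passing. In this bulk RNA, a lower level of a gene in every cell and fewer cells that express it cannot be told apart.

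**Figure D3:**
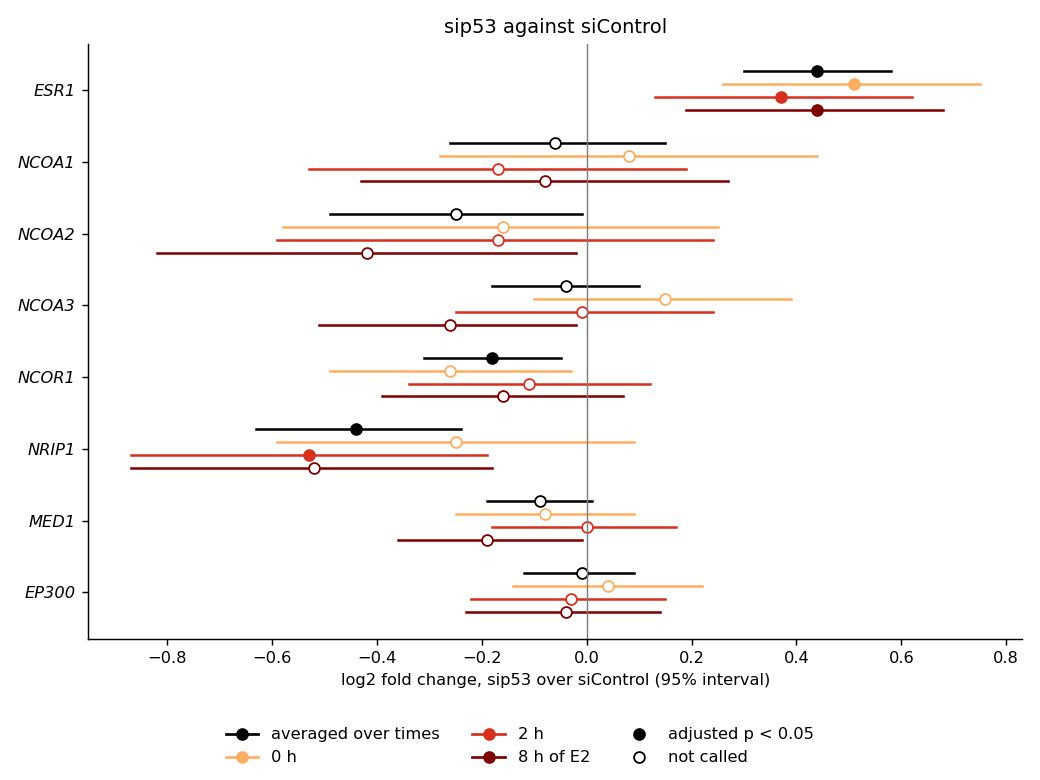
Log2 fold change of each member (rows) in sip53 over siControl with its 95% interval (x axis), averaged over the 3 times (black) and at 0, 2 and 8 h (orange to dark red); filled points have an adjusted p under 0.05. ESR1 is to the right of 0 in every estimate, from 0.37 to 0.51, and NRIP1 to the left, from -0.53 to -0.25.

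The group means of ESR1 fell into an upper and a lower set. The sip53 means were 95.4 ± 2.48, 89.3 ± 3.87 and 84.3 ± 4.68 CPM at 0, 2 and 8 h, and the siControl means 67.2 ± 10.5, 68.9 ± 12.1 and 62.3 ± 2.45 CPM (SD, n = 3 each). Neighbours in that order overlapped in their ranges, also where sip53 at 8 h meets siControl at 2 h. For NRIP1 the sip53 means were 28.0 ± 4.35, 26.4 ± 2.46 and 22.0 ± 0.43 CPM at 0, 2 and 8 h, and the siControl means 33.3 ± 6.15, 38.2 ± 3.24 and 31.7 ± 7.94 CPM. There siControl at 8 h and sip53 at 0 h are the neighbours between the arms, and they overlapped. Across the 18 libraries ESR1 and NRIP1 had a Pearson correlation of -0.62 in log2 CPM, and NCOA1 and NCOA2 had the highest among the members, 0.78; the libraries share 2 arms and 3 times, so these are descriptions.

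No member was called for E2 in either arm. At 2 h of E2 against 0 h, edgeR called 0 of 8 members in sip53, where 0.307% of all rows were called, and 0 of 8 in siControl, where 0.228% were. At 8 h against 0 h it called 0 members higher and 0 lower in sip53, where 1.55% of rows were higher and 1.18% lower, and 0 and 0 in siControl, where 1.78% were higher and 0.823% lower. At an unadjusted p under 0.05, 1 member passed in sip53 (7.44% of all rows) and 0 in siControl (11.4%) at 2 h, and 3 in sip53 (14.3%) and 1 in siControl (16.9%) at 8 h. DESeq2 called 0 members at 2 h, with 90 of 15036 rows called in sip53 and 127 of 10462 in siControl. At 8 h DESeq2 called 1 (NCOA3) in sip53, with 609 of 13511 rows, and 0 in siControl, with 640 of 14020. The edgeR fit called 419 of 15318 rows in sip53 and 399 in siControl at 8 h. Limma-voom called 0 members in each comparison. Of 15318 rows it called 47 in sip53 and 33 in siControl at 2 h, and 445 and 366 at 8 h.

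NCOA3 came nearest to a call. In sip53 the 8 h libraries held 97.0, 107 and 78.3 CPM of NCOA3 and the 0 h libraries 145, 112 and 117 CPM. In siControl the 8 h libraries held 119, 120 and 99.3 CPM and the 0 h libraries 114, 112 and 110 CPM. The sip53 groups did not overlap, and the siControl groups did. The log2 change was -0.41 ± 0.12 in sip53 (95% interval -0.65 to -0.16, adjusted p = 0.0675 in edgeR) and 0.01 ± 0.12 in siControl (interval -0.24 to 0.25, adjusted p = 0.987). NCOA3 passed the threshold in sip53 with DESeq2 (adjusted p = 0.0205), without the filter on low counts (0.0300) and without sip53 8 h replicate 2 (0.0338). The highest 0 h value came from sip53 0 h replicate 1, the library near the siControl arm, and without it the log2 change in sip53 was -0.29 (adjusted p = 0.309 in edgeR). Without sip53 8 h replicate 3, the lowest library, it was -0.28 (adjusted p = 0.375), and in the fit of the 2 groups alone the adjusted p was 0.182.

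NRIP1, known from breast cancer cells to rise with estradiol, was not called. Its log2 change at 8 h of E2 was -0.35 ± 0.17 in sip53 (adjusted p = 0.342) and -0.08 ± 0.16 in siControl (adjusted p = 0.862) in edgeR, and at 2 h it was -0.09 ± 0.17 in sip53 and 0.20 ± 0.16 in siControl. The 95% interval of the siControl change reached 0.54 at 2 h and 0.26 at 8 h on the log2 scale. ESR1 changed by -0.18 ± 0.12 in sip53 and -0.11 ± 0.12 in siControl at 8 h (adjusted p of 0.524 and 0.7 in edgeR). The 3 sip53 libraries at 8 h lay below the 3 at 0 h for ESR1, and the siControl groups overlapped.

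NCOA2 had the largest siControl difference. At 8 h the siControl libraries held 26.3, 32.5 and 23.7 CPM, against 19.8, 18 and 22.6 CPM at 0 h and 20, 20.4 and 13.9 CPM at 2 h. The log2 change was 0.45 ± 0.20 against 0 h (adjusted p = 0.243) and 0.60 ± 0.20 against 2 h (adjusted p = 0.166) in edgeR. In sip53 the 8 h libraries held 18, 22.7 and 21.0 CPM and the 0 h libraries 21.4, 15.5 and 17 CPM, which overlapped. EP300 was lower than at 0 h in all 3 sip53 libraries at both 2 h and 8 h, with a log2 change of -0.19 ± 0.09 each time (adjusted p of 0.655 and 0.319 in edgeR). Both values use the same 0 h libraries. In siControl EP300 changed by -0.12 ± 0.09 at 2 h and -0.11 ± 0.09 at 8 h, and the groups overlapped. Its arm difference was -0.07 ± 0.13 at 2 h and -0.08 ± 0.13 at 8 h.

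**Figure D4:**
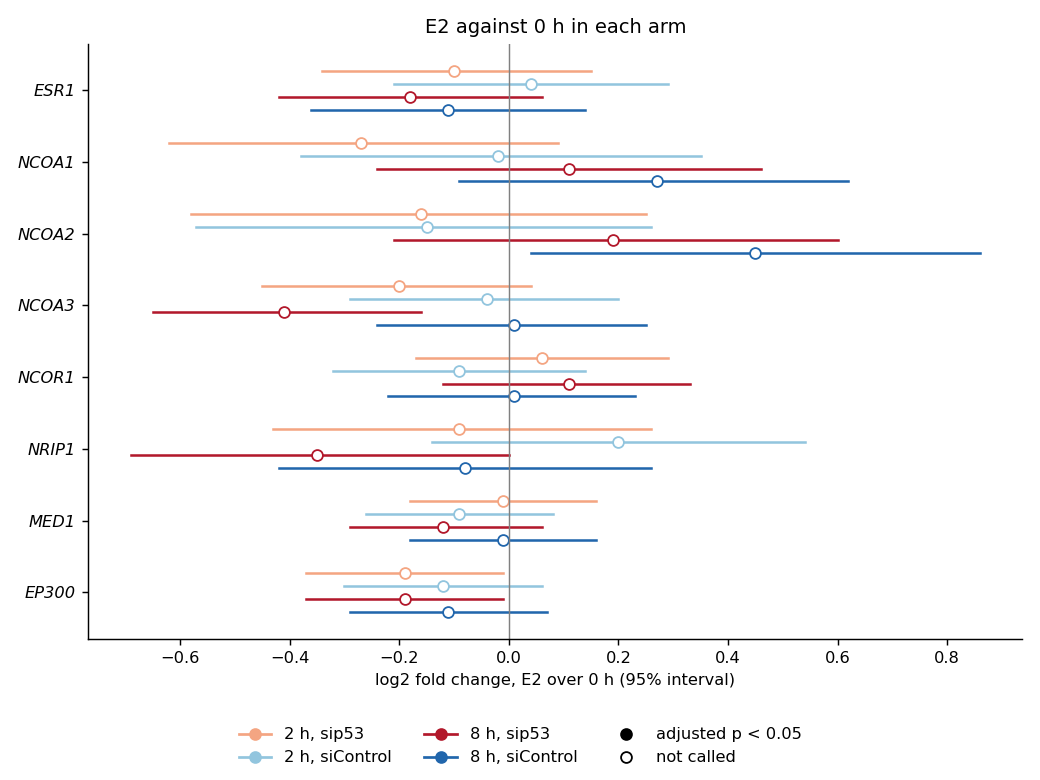
Log2 fold change of each member (rows) at 2 h and 8 h of E2 over 0 h with its 95% interval (x axis), in sip53 (reds) and siControl (blues); all points are open because no adjusted p was under 0.05. NCOA3 in sip53 at 8 h is at -0.41 and NCOA2 in siControl at 8 h is at 0.45.

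The change between 2 h and 8 h of E2 was called for 0 of 8 members in each arm, with 1.38% of all rows called in sip53 and 1.02% in siControl. At an unadjusted p under 0.05, 1 member passed in each arm, NCOA1 in sip53 and NCOA2 in siControl, with 12.4% and 12.1% of all rows passing. DESeq2 called 0 members in each arm, with 365 of 15036 rows called in sip53 and 330 of 13003 in siControl. Limma-voom also called 0 members, with 256 rows called in sip53 and 143 in siControl, of 15318. The E2 response of sip53 minus that of siControl was called for 0 of 8 members and for 0% of rows at 2 h, and likewise for 0 of 8 members and 0% of rows at 8 h. At an unadjusted p under 0.05, 0 members and 451 rows (2.94%) passed at 2 h and 1 member and 583 rows (3.81%) at 8 h. DESeq2 called 1 and 2 rows, and limma-voom 0 and 0. The member at 8 h was NCOA3, whose arm difference was -0.41 ± 0.17 on the log2 scale (unadjusted p = 0.0219, adjusted p = 0.999 in edgeR). That of NRIP1 was -0.27 ± 0.23 and that of ESR1 -0.07 ± 0.17, with a 95% interval of -0.42 to 0.28 for ESR1.

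ESR2, which encodes the second nuclear estrogen receptor, had 4 counts over all 18 libraries. PGR, which encodes the receptor for progesterone, had 5. The membrane estrogen receptor gene GPER1 stood at 1.24 ± 0.73 CPM in sip53 and 0.551 ± 0.284 CPM in siControl and was not called (log2 1.02 ± 0.41, adjusted p = 0.0555 in edgeR). Of 6 related receptors 3 were tested, and 1 rose with p53 knockdown: ESRRA, an orphan receptor known for its control of mitochondrial genes, at 59.6 ± 5.21 CPM in sip53 and 48.0 ± 5.69 CPM in siControl (log2 0.31 ± 0.07, adjusted p = 0.00148). Of all rows 16.1% were called higher.

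The other coregulators moved in both directions after p53 knockdown, averaged over the times. Of 24 other coactivators 21 were tested, 3 rose and 6 fell, with 16.1% of all rows called higher and 18.5% lower. NCOA7, a coactivator with a role in oxidative stress, fell to 93.6 ± 13 CPM in sip53, against 128 ± 22.0 CPM in siControl (log2 -0.45 ± 0.06, adjusted p = 5.39e-06 in edgeR). The RNA helicase DDX17 (-0.24 ± 0.05), CCAR1, which links receptors to Mediator (-0.27 ± 0.06), the histone methyltransferase KMT2C (-0.36 ± 0.08) and CREBBP, the paralog of EP300 (-0.21 ± 0.06, adjusted p = 0.00614), also fell, and KDM4B was the sixth. The 3 that rose were the arginine methyltransferase PRMT1 (0.30 ± 0.06) and the acetyltransferases KAT5 (0.22 ± 0.06) and KAT2A (0.23 ± 0.07). The median over the list was -0.07, against 0.01 over all rows. CREBBP thus fell where EP300 was not called; the difference between the 2 genes was not tested.

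SWI/SNF complexes open chromatin for nuclear receptors. All 12 listed subunits were tested, 3 rose and 4 fell, with a list median of -0.13. Of all rows 16.1% were called higher and 18.5% lower. PBRM1, the subunit that marks the polybromo form of the complex, fell to 109 ± 16.5 CPM in sip53, against 155 ± 9.74 CPM in siControl (log2 -0.52 ± 0.07, adjusted p = 9.1e-06 in edgeR). The ATPase SMARCA2 (-0.39 ± 0.07), SMARCE1 (-0.32 ± 0.06) and ACTL6A (-0.50 ± 0.11) fell too, while the DNA-binding subunit ARID1B (0.29 ± 0.06), SMARCD2 (0.28 ± 0.07) and SMARCB1 (0.27 ± 0.09) rose.

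Of 26 other corepressors and deacetylase partners, all tested, 6 rose and 2 fell, with a list median of 0.03. The shares of all rows were 16.1% higher and 18.5% lower. PHB2, a prohibitin known to repress the receptor, rose to 440 ± 19.9 CPM in sip53, against 357 ± 27.5 CPM in siControl (log2 0.30 ± 0.05, adjusted p = 8.56e-05 in edgeR). Its partner PHB1 (0.21 ± 0.06) and the repressor BCL6 (0.35 ± 0.09) rose too, and CTBP1 and RBBP7 were also among those that rose. SAFB2 and SAFB, scaffold attachment factors that bind and repress the receptor, fell, SAFB2 to 106 ± 16.4 CPM in sip53 against 143 ± 18.4 CPM in siControl (log2 -0.44 ± 0.07) and SAFB by a log2 of -0.58 ± 0.11. LCOR, a ligand-dependent corepressor, had 3 rows; the row with the most transcripts was not called (-0.10 ± 0.06, adjusted p = 0.247), nor was another (-0.01 ± 0.07), while a row of 1 transcript fell to 9.65 ± 4.52 CPM in sip53, against 28.3 ± 4.76 CPM in siControl (-1.57 ± 0.17, adjusted p = 7.18e-07 in edgeR).

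Of 31 other Mediator genes, all tested, 5 rose and 3 fell, with a list median of 0.02. Among all rows 16.1% were called higher and 18.5% lower. MED13 and MED13L, alternative subunits that tether the kinase module of Mediator, fell by the most: MED13 stood at 80.8 ± 8.76 CPM in sip53 and 118 ± 12.3 CPM in siControl (log2 -0.55 ± 0.07, adjusted p = 4.33e-06 in edgeR) and MED13L at 59.2 ± 5.98 CPM in sip53 and 85.4 ± 10.3 CPM in siControl (log2 -0.53 ± 0.07). MED4 was the third (-0.20 ± 0.07). MED18 (0.64 ± 0.13), MED28 (0.30 ± 0.07), MED24 (0.29 ± 0.07), and MED26 (0.44 ± 0.12) rose, with MED25.

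Chaperones hold the empty receptor in a form that can bind hormone. All 11 listed were tested, 5 rose and 1 fell, with a list median of 0.05. For these and the ligases and kinases below, the shares of all rows were 16.1% higher and 18.5% lower. HSPA8, a constitutive heat shock protein, rose to 664 ± 58.7 CPM in sip53, against 491 ± 72.3 CPM in siControl (log2 0.44 ± 0.07, adjusted p = 4.55e-05 in edgeR). PTGES3 (0.32 ± 0.06), STIP1 (0.29 ± 0.06) and HSP90AA1 (0.20 ± 0.05) rose too, as did FKBP4, and the cyclophilin PPID fell (-0.35 ± 0.09). Of 15 ligases and kinases that act on the receptor protein, all tested, RNF31 (0.39 ± 0.11), SRC (0.34 ± 0.10) and MAPK3 (0.19 ± 0.07) rose and BRCA1 fell (-0.26 ± 0.05).

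Of 12 transcription factors that share binding regions with the receptor, all tested, 2 rose and 2 fell. Of all rows 16.1% were called higher and 18.5% lower. TFAP2C, an AP-2 factor that opens sites for the receptor, rose to 394 ± 126 CPM in sip53, against 272 ± 58.2 CPM in siControl (log2 0.50 ± 0.05, adjusted p = 2.64e-07 in edgeR). XBP1, the factor of the unfolded protein response, fell to 73.3 ± 16.5 CPM in sip53, against 99.9 ± 23.1 CPM in siControl (log2 -0.44 ± 0.05, adjusted p = 1.85e-06), and CTCF fell by a log2 of -0.39 ± 0.07. Each SD spans the 3 times, and both TFAP2C and XBP1 also changed with E2.

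**Figure D5:**
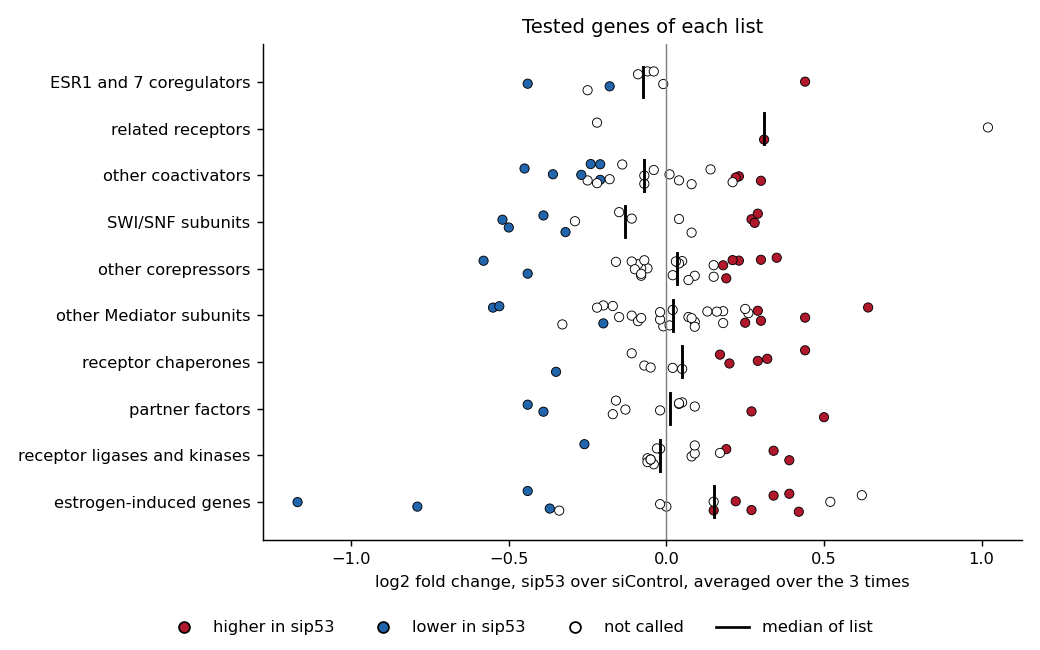
Log2 fold change in sip53 over siControl, averaged over the 3 times (x axis), of every tested gene in the members and 9 lists of related genes (rows); red points were called higher, blue points lower and open points neither, and black bars are list medians. Called genes lie on both sides of 0 in each list but that of related receptors, and list medians run from -0.13 to 0.31.

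Known estrogen-induced genes were likewise called on both sides of 0 after p53 knockdown, while ESR1 was higher. Of 20 such genes 16 were tested, 6 rose and 4 fell, and TFF1 had 0 counts. The shares of all rows were 16.1% higher and 18.5% lower. FHL2 (0.39 ± 0.06), PDZK1 (0.42 ± 0.10), CTSD (0.27 ± 0.08) and SIAH2 (0.22 ± 0.07) rose, as did IGFBP4 and MYC. AREG, a ligand of the EGF receptor, fell to 33 ± 7.37 CPM in sip53, against 74.8 ± 15.7 CPM in siControl (log2 -1.17 ± 0.10, adjusted p = 2.15e-08 in edgeR), and the sulfate transporter SLC26A2 (-0.79 ± 0.07), XBP1 and STC2 (-0.37 ± 0.05) fell too. GREB1, an estrogen-induced cofactor of the receptor, stood at 3.20 ± 1.72 CPM in sip53 and 2.12 ± 1.18 CPM in siControl and was not called (log2 0.52 ± 0.27, adjusted p = 0.135). Not all of these genes were called for E2 in these cells. At 8 h of E2 edgeR called FHL2, MYC, XBP1 and STC2 higher in both arms and IGFBP4 in sip53. PDZK1, CTSD, SIAH2, AREG, SLC26A2 and GREB1 were called in neither arm.

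At 8 h of E2, 3 of the 90 tested genes in the lists of coactivators, SWI/SNF, corepressors and Mediator were called in sip53, or 3.33%, with 2.74% of all rows called. In siControl 4 of the 90 were called, or 4.44%, with 2.6% of all rows. Of the 21 other coactivators tested, PPARGC1B, a coactivator of mitochondrial genes, rose in both arms, to 17.2 ± 1.49 CPM at 8 h against 9.40 ± 1.11 CPM at 0 h in sip53 (log2 0.87 ± 0.18, adjusted p = 0.00651 in edgeR) and to 14.9 ± 2.26 CPM against 8.60 ± 1.58 CPM in siControl (0.79 ± 0.18, adjusted p = 0.019). CREBBP fell in sip53, to 114 ± 8.98 CPM at 8 h against 148 ± 10.1 CPM at 0 h (log2 -0.37 ± 0.10, adjusted p = 0.0407), and was not called in siControl (-0.08 ± 0.10). NCOA7 rose in siControl (0.41 ± 0.10, adjusted p = 0.0284) and was at 0.31 ± 0.10 in sip53 (adjusted p = 0.117). The filtered edgeR fit called no difference between the arms for these genes, so calls in 1 arm are not shown to differ from the other.

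Of the 26 corepressors, SAFB2 fell in sip53 at 8 h of E2 (-0.43 ± 0.12, adjusted p = 0.0496 in edgeR) and stood at -0.27 ± 0.12 in siControl. ARID1B (0.38 ± 0.10) of the 12 SWI/SNF genes and MED8 (0.40 ± 0.10) of the 31 Mediator genes rose in siControl.  Among the 12 partner factors 4 rose in sip53 and 5 in siControl, with 1.55% and 1.78% of all rows called higher. KLF4 rose to 49.1 ± 7.18 CPM at 8 h against 18.7 ± 1.94 CPM at 0 h in sip53 (log2 1.39 ± 0.18) and to 48.1 ± 3.32 CPM against 19.5 ± 7.36 CPM in siControl (1.29 ± 0.18). TFAP2C rose by 0.61 ± 0.09 in sip53 and 0.56 ± 0.09 in siControl, XBP1 by 0.65 ± 0.09 in sip53 and 0.73 ± 0.09 in siControl, and CEBPB by 0.63 ± 0.11 in sip53 and 0.93 ± 0.11 in siControl, each called in edgeR.

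Of the 16 estrogen-induced genes tested, 6 rose in sip53 and 5 in siControl at 8 h of E2 in edgeR, and the median log2 change over the list was 0.48 in sip53 and 0.44 in siControl, against -0.01 over all rows in sip53. Of all rows 1.55% were called higher in sip53 and 1.78% in siControl. XBP1, called higher in both arms, is counted in this list and among the partner factors. NRIP1, a gene of the same kind, was not called. STC2, which encodes stanniocalcin, rose to 736 ± 36.2 CPM at 8 h against 347 ± 18.4 CPM at 0 h in sip53 (log2 1.08 ± 0.08) and to 967 ± 69.7 CPM against 484 ± 21.5 CPM in siControl (1.00 ± 0.08). GREB1 stood at 5.16 ± 1.48 CPM at 8 h and 1.80 ± 0.529 CPM at 0 h in sip53 (log2 1.51 ± 0.45, adjusted p = 0.0748 in edgeR) and at 3.01 ± 1.51 CPM at 8 h and 1.35 ± 0.972 CPM at 0 h in siControl (1.11 ± 0.48, adjusted p = 0.23).

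The genes whose levels followed ESR1 most closely were found by Pearson correlation of log2 CPM over the 18 libraries, among rows with an average log2 CPM of at least 3. They were SLC44A2 (0.91), PNPLA6 (0.91), VCL (0.90), TM7SF2 (0.90) and SFXN4 (0.89), and the most opposite were CCNY (-0.95), FBXW2 (-0.92) and STK24 (-0.91). The libraries share the split into 2 arms, and within the 9 sip53 libraries alone the first 5 had correlations of -0.10 to 0.58, while within the 9 siControl libraries they had 0.70 to 0.89. For NRIP1 the closest were HNRNPC (0.91), GNL3 (0.91), ZZZ3 (0.90), TANC2 (0.90) and RAI14 (0.89), with correlations of 0.65 to 0.86 within sip53 and 0.83 to 0.91 within siControl. These are descriptions, chosen as the highest of many, with no test.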

How the data were processed

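RNA was measured in 18 libraries of PEO1 cells. The authors deposited RSEM expected counts per gene row, and per the submitters' processing notes they used cutadapt, Bowtie2, RSEM 1.3.3 and MultiQC with build hg19; no source here names the annotation. All values were whole, so rounding moved none. The 57736 rows were named by transcript through GENCODE v29 (GRCh38), so coordinates are on GRCh38; rows without a name held 0.635% of counts. Where a gene of a list had several rows, that with the most transcripts was used.

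All rows entered edgeR 4.0.16 (R 4.3.3): filterByExpr with a minimum count of 10, TMM, and a quasi-likelihood fit of 6 group means with 12 contrasts; calls are at a Benjamini-Hochberg adjusted p under 0.05 within a contrast over 15318 rows. SE is the log2 fold change divided by the root of F. The biological coefficient of variation was 15.2%, and library pairs within a group differed beyond sampling noise (chi-square per degree of freedom 4.04 to 22.9). The scripts were tested on simulated data. DESeq2 1.42.0, limma 3.58.1 and other settings were tried as alternatives.

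Named genes were all members; per list up to 4 called genes per direction with the smallest adjusted p for the averaged knockdown and up to 3 for 8 h of E2; and GREB1, CREBBP, PGR and ESR2. GPER1, TFF1, the remaining called genes and the overlapping genes were named after their values were seen. The members and lists were chosen with earlier results of these data known. The level of the targeted gene and the values of some listed genes are not reported here.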

Additional observations from a re-analysis of the deposited data

How the results depend on the processing

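The averaged knockdown called 3 members and 2 to 3 when 1 library was left out; ESR1 and NRIP1 kept their call in each of those fits. Without 1 library, the members called numbered 0 to 2 at 0 h, 0 to 2 at 2 h and 0 to 2 at 8 h of the knockdown, and 0 to 1 for 8 h of E2 in sip53, with NCOA3 the member called. With only the 2 groups of the contrast in the fit, 0 members were called for the knockdown at 0 h, against 1. That fit called 284 of 14299 rows, against 1397 of 15318. For the knockdown at 8 h, RLE scaling, no filter on low counts, DESeq2 and the replicate block each called 2 members, against 1, the second being NRIP1. Rows called were, in that order, 1398 of 15318, 1722 of 26224, 1824 of 12495 and 1419 of 15318, against 1372 of 15318. For 8 h of E2 in sip53, no filter, DESeq2 and the replicate block each called 1 member, against 0. In that order they called 701 of 26224, 609 of 13511 and 430 of 15318 rows, against 419 of 15318. The cause of these differences was not tested. Same-numbered libraries showed little shared deviation from their group means (45 pairs, correlations of -0.145 to 0.209, 3 over 0.1). The labels do not say whether a number marks a shared culture, and these correlations cannot decide it. NRIP1 at 8 h and NCOA3 at 8 h of E2 in sip53 were the members whose call moved with the block. Their adjusted p with it were 0.034 and 0.0354 in edgeR. The other settings left these counts as they were, apart from upper-quartile scaling, which took NCOR1 from the averaged knockdown. Over the 172 refits of the 7 called member values none turned the sign and 34 lost the call; over the 2220 refits of the 89 values not called, 100 turned the sign and 15 were called. Counts of rows called, from which the shares of all rows come, moved more. The number of rows tested also differed, from 10462 with DESeq2 for 2 h of E2 in siControl to 26224 without the filter on low counts. Ranges of these counts are therefore not ranges of shares. Over the alternatives the counts were 4700 to 5608 for the averaged knockdown (5295 as reported), 284 to 2043 at 0 h (1397), 821 to 2730 at 2 h (1871) and 399 to 1824 at 8 h (1372). For E2 they were 30 to 204 in sip53 (47) and 13 to 285 in siControl (35) at 2 h, 213 to 701 in sip53 (419) and 131 to 789 in siControl (399) at 8 h, and 105 to 403 in sip53 (211) and 81 to 330 in siControl (157) between 2 and 8 h. The arm difference called 0 to 36 rows at 2 h and 0 to 54 at 8 h, the most without the filter on low counts. Summing the rows of a member gave no value, since each had 1 row. With 3 libraries a group and a coefficient of variation of 15.2%, changes of the size seen at single times lie near the threshold. When a library was left out, the groups left with 2 libraries shared the spread estimated over all groups.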
